A study of Homo sapiens with 8 samples.

Results

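The signal transducers and activators of transcription (STAT) and their feedback inhibitors of the SOCS family were described at 9 genes, STAT2, STAT3, STAT4, STAT5A, STAT5B, SOCS1, SOCS2, SOCS3 and CISH, chosen by name out of 20090 protein-coding genes of the autosomes and chromosome X. At each gene, the deposited peaks of H3K4me3 and H3K27ac, histone marks found mainly at active promoters and at active promoters and enhancers, were collected over the gene body and 10 kb on each side, and at the transcription start site (TSS). The cells were HL-60, an established human leukemia cell line. They received 1 µM all-trans retinoic acid (ATRA), which drives these cells towards granulocytes, or an equal volume of ethanol, its solvent (control), for 4 days, with medium and agent renewed on the way. ChIP-seq of each mark was made from 2 replicates of ATRA-treated and 2 of control cells, 8 libraries in all, and the labels do not say whether the replicates were separate cultures.

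H3K4me3 covered the TSS of 5 of 8 myeloid marker genes in every library, SPI1, CEBPA, CEBPE, MPO and CD33, and of 0 of 8 marker genes of other blood cells. Of the remaining myeloid markers, PRTN3 had H3K4me3 there in both ATRA libraries alone, and LYZ and AZU1 in none. A library held 13241 to 16487 H3K4me3 peaks over 47.7 to 63.2 Mb, and 15457 to 39332 H3K27ac peaks over 28.8 to 86.1 Mb. The lowest lengths, 47.7 and 28.8 Mb, were those of H3K4me3 control replicate 2 and H3K27ac control replicate 1, and the part of this unequal coverage in any difference given here was not tested. In bulk chromatin, a mark carried by more cells and a mark spread further in each cell cannot be told apart. The files hold peaks without read counts, so the depth is unknown.

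STAT proteins are cytoplasmic transcription factors. Cytokine receptors activate JAK kinases, which phosphorylate STATs on tyrosine; the STATs then pair, enter the nucleus and bind short palindromic sites written TTCNNNGAA. SOCS1, SOCS2, SOCS3 and CISH are themselves induced by STATs and act back on the receptor or the JAK kinase, which ends the signal. In myeloid cells, STAT3 and STAT5 transmit signals of G-CSF and other growth factors, and SOCS3 restrains the G-CSF receptor.

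Promoters of inhibitors in this feedback are shown first, as the 250 bases before the start of the canonical transcript on GRCh37, 5′ to 3′ on the strand of the gene. Capitals mark the letters TTCNNNGAA in CISH, and GAAANNGAAA, the form of site bound by STAT2 together with IRF9, in SOCS1. The sequences are those of CISH (chr3:50649206-50649455, minus strand) and SOCS1 (chr16:11350062-11350311, minus strand).
CISH: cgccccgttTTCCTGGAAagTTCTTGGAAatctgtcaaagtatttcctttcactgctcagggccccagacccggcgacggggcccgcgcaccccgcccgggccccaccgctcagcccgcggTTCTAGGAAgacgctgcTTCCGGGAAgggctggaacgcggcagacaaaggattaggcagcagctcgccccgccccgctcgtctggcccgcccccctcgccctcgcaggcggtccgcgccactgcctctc
SOCS1: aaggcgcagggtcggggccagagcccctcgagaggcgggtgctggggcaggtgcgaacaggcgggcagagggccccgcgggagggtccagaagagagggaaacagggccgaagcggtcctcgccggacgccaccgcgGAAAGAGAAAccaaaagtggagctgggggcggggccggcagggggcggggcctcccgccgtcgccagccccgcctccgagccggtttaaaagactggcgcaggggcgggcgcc

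The CISH promoter held 4 matches to TTCNNNGAA, which were TTCCTGGAA, TTCTTGGAA, TTCTAGGAA and TTCCGGGAA at 241, 230, 129 and 112 bp upstream of the start. Among 20086 promoters of the same length, searched on both strands, 5.67% held at least 1 match, 0.279% at least 2, and 4 promoters at least 3. SOCS1 held no TTCNNNGAA but 1 GAAAGAGAAA at 113 bp upstream, a form found in 2.87% of promoters. The same windows of STAT2, STAT3, STAT4, STAT5A, STAT5B and SOCS2 held neither form. A match is a run of letters, and no measurement of STAT binding was analysed here.

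Differences between the conditions stood out at SOCS3 in both marks, and at STAT4, STAT5A and STAT3 in H3K27ac. SOCS3 was under H3K27ac in both ATRA libraries and in no control library, STAT4 carried more H3K27ac after ATRA, and STAT5A and STAT3 carried less over a stretch that they share. With 2 libraries against 2, no exact two-sided permutation test can give a p below 0.33, so the comparison rests on whether the libraries of the conditions overlap. By length under H3K27ac peaks, 6 of the 9 genes were higher in both ATRA libraries than in both control libraries, where 41.6% of 14618 genes with a peak were, and 2 were lower, where 3.93% were. For H3K4me3, 4 were higher and 0 lower, where 40.8% and 3.86% of 13774 genes were, a share of higher genes close to that of all genes.

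Higher values in ATRA were common over all genes. The median log2 ratio of ATRA to control, with 1000 bp added to each mean, was 0.45 over all genes for H3K27ac and 0.76 over the 9 genes, and 0.15 and 0.26 for H3K4me3. When each length was divided by the covered length of its library, the median over all genes moved to -0.14 for H3K27ac, with 17.7% of genes higher and 25.4% lower, and to -0.04 for H3K4me3, with 16.0% higher and 24.7% lower. On that scale, STAT2, STAT4 and SOCS3 remained higher in H3K27ac and STAT3 and STAT5A lower, while STAT2 and SOCS3 remained higher in H3K4me3 and STAT5A became lower.

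**Figure D1:**
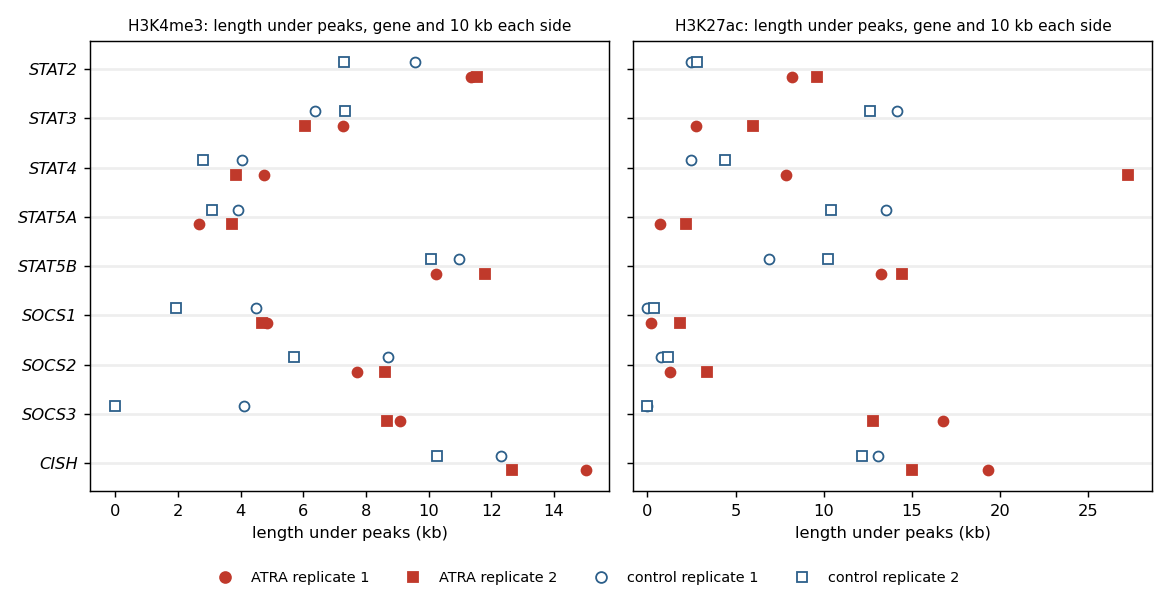
Length under H3K4me3 peaks (left) and H3K27ac peaks (right) over each gene and 10 kb on each side, in kb, with 1 point for each library. In the H3K27ac panel the ATRA points lie right of both control points at 6 genes and left of them at STAT3 and STAT5A; at SOCS3 both control libraries lie at 0.

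**Figure D2:**
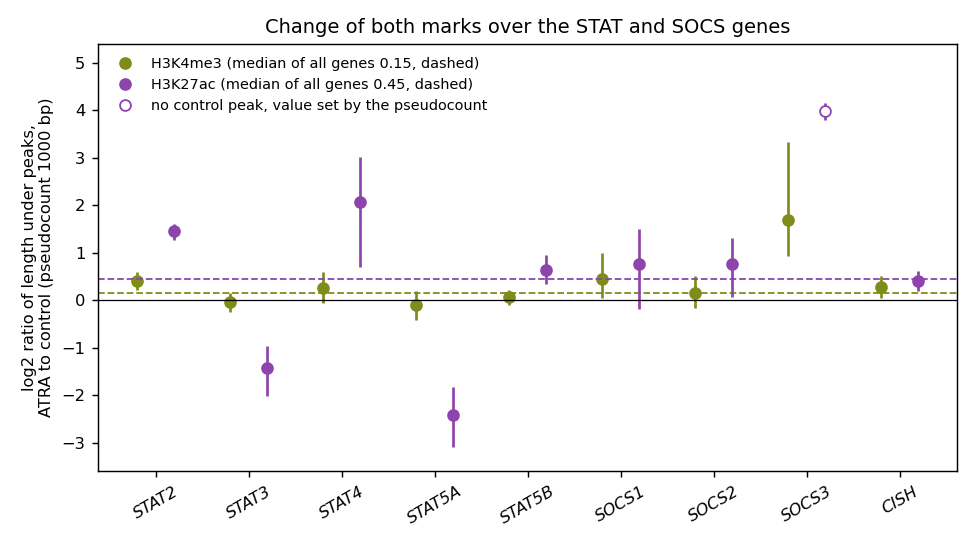
Log2 ratio of the mean length under peaks, ATRA to control, for each gene and mark, with lines from the lowest ATRA library against the highest control library to the highest against the lowest, and dashed lines at the medians over all genes (0.15 for H3K4me3 and 0.45 for H3K27ac). STAT3 and STAT5A lie at -1.42 and -2.41 in H3K27ac and at -0.04 and -0.10 in H3K4me3, and the open point of SOCS3 is set by the pseudocount, since no control library had a peak.

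Among the STATs, STAT2 works in the interferon response, where it joins IRF9 to form a DNA-binding complex. The STAT2 gene (chr12:56735381-56753987, minus strand) with its flanks had 11340 and 11555 bp under H3K4me3 in ATRA replicates 1 and 2, and 9561 and 7306 bp in control replicates 1 and 2. The groups did not overlap, and the log2 ratio was 0.40. The H3K4me3 peak over the STAT2 TSS itself spanned 6041 and 6450 bp in ATRA and 4856 and 3222 bp in control. Such a longer peak over the TSS in both ATRA libraries was found at 40.7% of genes with a peak there.

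H3K27ac over STAT2 and its flanks reached 8191 and 9617 bp in ATRA, and 2461 and 2804 bp in control. The ratio was 1.45, but most of the difference lay outside the gene. Within the gene body, H3K27ac covered 0 and 1054 bp in ATRA and 0 and 585 bp in control, so the conditions overlapped. A stretch around the start, chr12:56752934-56755880, had 991 and 2947 bp in ATRA, and 0 and 585 bp in control. There the conditions did not overlap, and the TSS itself was covered in ATRA replicate 2 alone. Downstream of STAT2, a stretch at chr12:56726253-56733984 had 7200 and 6670 bp in ATRA and 2461 and 2219 bp in control. This stretch held the TSS of PAN2, a deadenylase subunit, which was under H3K27ac in all 4 libraries, and that of IL23A, which encodes the p19 chain of interleukin-23. The TSS of IL23A, at position 56732668, was under H3K27ac in both ATRA libraries and no control library, and under H3K4me3 in none. H3K27ac in both ATRA libraries and no control library was found at 6.98% of 8730 genes with H3K27ac over the canonical start.

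STAT4 conveys interleukin-12 signals, best known from T and NK cells. Its gene (chr2:191894302-192016322, minus strand) had no peak of either mark over its 5′ end or canonical start in any library. H3K4me3 covered none of its annotated transcript starts, and H3K27ac covered an internal one in both ATRA libraries alone, under peaks of 2448 and 7185 bp. H3K27ac over the gene and flanks nevertheless covered 7847 and 27289 bp in ATRA, and 2469 and 4413 bp in control. Both ATRA libraries were above both control libraries, and the difference between the ATRA libraries was itself large. The log2 ratio was 2.06, with 0.99 when ATRA replicate 2 was left out and 2.67 when ATRA replicate 1 was left out.

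Much of the added H3K27ac of STAT4 lay inside the gene, towards its 3′ end. In the gene body, 4384 and 19070 bp were covered in ATRA, against 0 and 873 bp in control. Over all bases further than 2 kb from any protein-coding TSS, the lengths were 3124 and 20578 bp in ATRA and 6 and 1028 bp in control, where 36.2% of 11039 genes were likewise higher in both ATRA libraries. A stretch at chr2:191896165-191903390 held 2682 and 7185 bp in ATRA, and one at chr2:191914104-191922994 held 1702 and 8891 bp, with 0 bp in either control library. Past the 3′ end, chr2:191889397-191891840 held 453 and 2444 bp in ATRA and 0 bp in control, and upstream of the start ATRA replicate 2 alone had peaks of 469, 894 and 1022 bp. No H3K4me3 peak lay over the stretch at chr2:191896165-191903390. H3K4me3 in the gene body covered 881 and 0 bp in ATRA and 1136 and 0 bp in control, and the remaining H3K4me3 of the window belonged to peaks that reached in across its 3′ edge. No H3K27ac peak of STAT4 had a −log10 q of 5 or more.

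**Figure D3:**
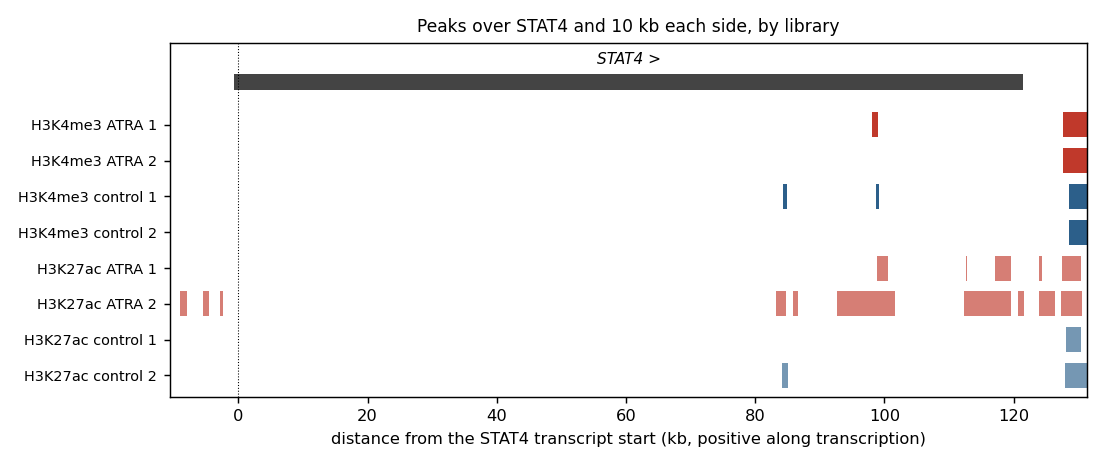
Peaks of both marks in each library over STAT4 and 10 kb on each side, by distance from the canonical transcript start in kb; the bar on top is the gene. H3K27ac peaks of ATRA-treated cells lie mainly in and past the 3′ part of the gene, in more and longer blocks in replicate 2, while no peak lies over the start.

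STAT5B, STAT5A and STAT3 lie side by side on chromosome 17, with the 3′ ends of STAT5A and STAT3 facing each other across a gap of 1380 bp (chr17:40463962-40465341). STAT5A and STAT5B are close paralogs that act downstream of growth factor and cytokine receptors, and how reads matching both were placed is not given in the sources used here. STAT5A (chr17:40439565-40463961, plus strand) had 693 and 2210 bp under H3K27ac in ATRA, and 13534 and 10436 bp in control. Both ATRA libraries were below both control libraries, with a log2 ratio of -2.41, and 0.1% of genes had a lower ratio. For STAT3 (chr17:40465342-40540558, minus strand), which conveys interleukin-6 and G-CSF signals, the lengths were 2752 and 5988 bp in ATRA and 14175 and 12620 bp in control. The ratio was -1.42 and 0.9% of genes lay lower. Leaving out any single library kept the STAT5A ratio between -2.94 and -2.02.

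These lower values are not independent, because the windows of STAT5A and STAT3 overlap and share most of the bases concerned. In the 21382 bp from 10 kb before to 10 kb after the gap (chr17:40453961-40475342), H3K27ac covered 693 and 2099 bp in ATRA, and 12671 and 10479 bp in control. The ATRA mean was 12.1% of the control mean. Bases under H3K27ac in both control libraries and in no ATRA library summed to 7951 bp, of which 4605 bp were exonic. The longest run, chr17:40462819-40467823, was 5005 bp long, contained the whole gap, and took in 3620 bp of 3′ untranslated exon of STAT5A and STAT3. Another run, chr17:40469060-40471682, was 2623 bp long with 662 bp of exon, and the last, chr17:40473782-40474104, was 323 bp of exon. Further than 2 kb from any TSS, H3K27ac in the STAT5A window covered 0 bp in both ATRA libraries, and 6410 and 4916 bp in control, where 3.61% of genes were likewise lower.

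The gap itself was under H3K4me3 over 1331 and 1380 bp in ATRA and 1380 bp in each control library, and under H3K27ac over 0 bp in ATRA and 1380 bp in control. Over the wider 21382 bp, H3K4me3 covered 1663 and 1966 bp in ATRA, and 3133 and 2303 bp in control, so both ATRA libraries were lower. This interval was described after its values were seen, and no share of like intervals over the genome was taken. An H3K27ac stretch called in both control libraries and no ATRA library, as over the gap, made up 1.16% of the 53141 joined H3K27ac stretches of the genome. Among the 40 H3K27ac stretches around the 9 genes, it was the only one of that kind. With only peaks of −log10 q of 5 or more, the conditions overlapped at both STAT5A and STAT3.

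**Figure D4:**
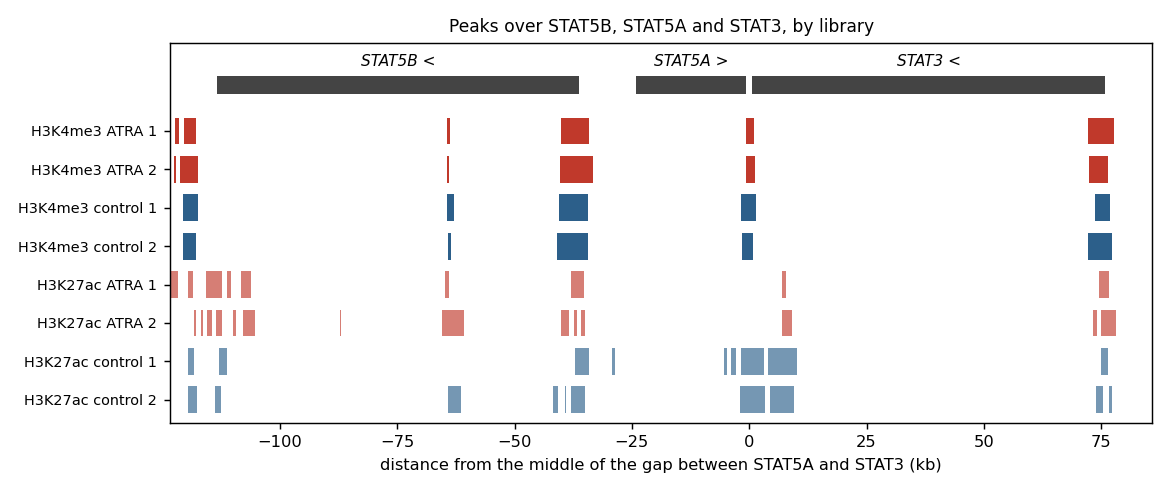
Peaks of both marks in each library over STAT5B, STAT5A and STAT3 and 10 kb beyond, by distance in kb from the middle of the gap between STAT5A and STAT3; bars on top are the genes from their canonical starts and arrowheads give the direction of transcription. Around 0, H3K27ac peaks stand in both control libraries and are missing or short in both ATRA libraries, while H3K4me3 stands in all 4.

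H3K4me3 at the promoters of these neighbours overlapped between the conditions. The STAT3 TSS was under H3K4me3 peaks of 5589 and 4096 bp in ATRA, and 3253 and 5037 bp in control. H3K27ac covered it over peaks of 2059 and 3022 bp in ATRA and 1504 bp in control replicate 1, and not in control replicate 2. Control replicate 2 had H3K27ac peaks of 1497 and 644 bp on either side of that TSS. Over the whole stretch, chr17:40537950-40542719, the lengths overlapped, at 2059 and 3889 bp in ATRA and 1504 and 2141 bp in control. H3K4me3 over the STAT3 window overlapped between conditions, at 7252 and 6062 bp in ATRA and 6386 and 7340 bp in control. The STAT5A TSS had no peak of either mark in any library, and H3K4me3 over its window overlapped, at 2682 and 3723 bp in ATRA and 3919 and 3096 bp in control. In the STAT5A gene body alone, H3K4me3 was lower in both ATRA libraries, at 0 and 100 bp, than in control, at 961 and 902 bp, where 5.47% of genes with a peak in the body were likewise lower.

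STAT5B (chr17:40351194-40440651, minus strand) had 10241 and 11789 bp under H3K4me3 in ATRA, and 10959 and 10066 bp in control, and the conditions overlapped. The 5′ end of its longest model had no peak, whereas the canonical start, at position 40428409, lay under H3K4me3 of 5955 and 6979 bp in ATRA and 6277 and 6734 bp in control. H3K27ac over the STAT5B window covered 13226 and 14420 bp in ATRA, and 6923 and 10232 bp in control. The ratio of 0.63 was above 0, but it turned to -0.19 when lengths were divided by the covered length of each library and to -0.99 with peaks of −log10 q of 5 or more.

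Within STAT5B, stretches of H3K27ac differed in direction. A stretch at the 3′ end, chr17:40348809-40354217, had 4494 and 2394 bp under H3K27ac in ATRA and 1817 and 1336 bp in control. Next to it, chr17:40356334-40359400 had 2170 and 2626 bp in ATRA and 0 bp in both control libraries. At the canonical start, chr17:40426620-40430595, the order was the opposite, with 2737 and 1329 bp in ATRA and 3071 and 3045 bp in control. Across all 3 genes and their flanks, H3K27ac summed to 15978 and 20408 bp in ATRA and 21098 and 22852 bp in control, and H3K4me3 to 17493 and 17851 bp in ATRA and 17345 and 17406 bp in control.

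SOCS3, which binds the JAK kinase and the gp130 and G-CSF receptors and blocks signalling to STAT3, differed most among the inhibitors. Its gene (chr17:76352859-76356158, minus strand) and flanks had 16748 and 12814 bp under H3K27ac in ATRA, and 0 bp in both control libraries. A gene window with H3K27ac in both ATRA libraries and no control library was found for 4.47% of genes with a peak. No fold is given against a group listed at 0. Further than 2 kb from any TSS, the lengths were 12744 and 9974 bp in ATRA.

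In ATRA replicate 1, a single H3K27ac peak of 11171 bp ran from upstream of the SOCS3 start past the 3′ end (chr17:76347964-76359134). In replicate 2, the same ground was held by peaks of 3580 bp over the start (chr17:76355527-76359106) and 6545 bp over the 3′ part (chr17:76347818-76354362). A TSS under H3K27ac in both ATRA libraries and in no control library was found at 7.28% of genes with such a peak. All H3K27ac peaks of SOCS3 had a −log10 q under 5, so at that threshold none was left in any library.

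H3K4me3 at SOCS3 covered 9085 and 8678 bp in ATRA, and 4092 and 0 bp in control. The ratio was 1.70, and 99.4% of genes had a lower one. It depended on the control libraries, at 3.30 without control replicate 1 and 0.96 without control replicate 2, and both control libraries were below both ATRA libraries. The peak over the SOCS3 TSS spanned 6670 and 6695 bp in ATRA, covering the whole gene, and 1440 bp in control replicate 1, and it was absent from control replicate 2. Farther downstream, past the 3′ end, control replicate 1 had a peak of 2221 bp where ATRA replicates 1 and 2 had peaks of 2415 and 1983 bp, so that this part of the locus did not separate the conditions.

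**Figure D5:**
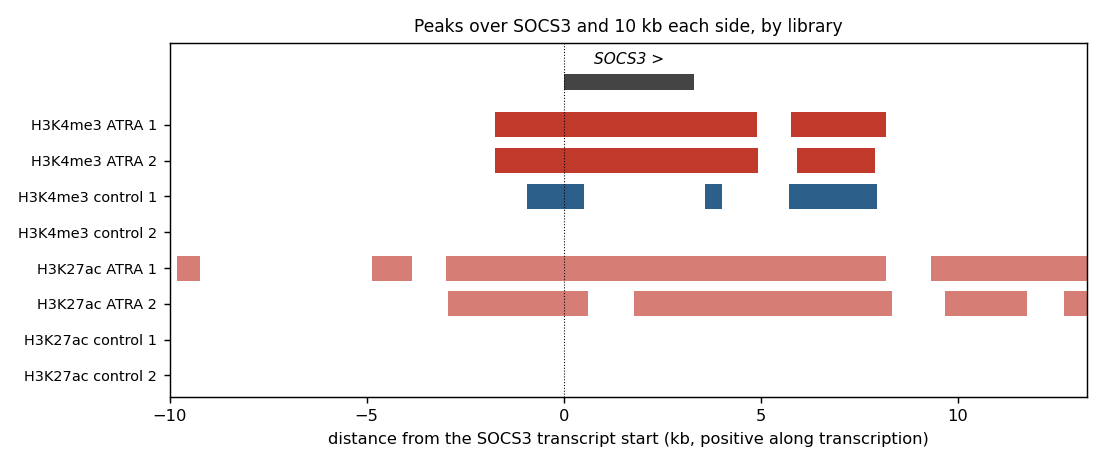
Peaks of both marks in each library over SOCS3 and 10 kb on each side, by distance from the transcript start in kb, positive along transcription; the bar on top is the gene. H3K4me3 extends over the whole gene in ATRA-treated cells and is short or absent in control cells, and H3K27ac stands in the ATRA libraries alone.

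CISH, which competes for the STAT5 docking sites of cytokine receptors, carried broad marks in every library. The gene (chr3:50643920-50649205, minus strand) with its flanks had 15023 and 12663 bp under H3K4me3 in ATRA, and 12297 and 10273 bp in control. The groups did not overlap, the ratio was 0.27, and 71.7% of genes had a lower one, so that CISH lay inside the common range. Most of the difference was in the gene itself. In the gene body, all 5286 bp were under H3K4me3 in both ATRA libraries, and 3386 and 2757 bp in control. H3K4me3 ran over the promoter with the 4 TTCNNNGAA letters in every library.

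H3K27ac at CISH covered 19306 and 14989 bp in ATRA, and 13068 and 12163 bp in control. The ratio of 0.41 was below the median of all genes, and it turned to -0.50 when lengths were divided by the covered length of each library. In the gene body, the lengths were 5157 and 2207 bp in ATRA and 1476 and 1019 bp in control. The CISH TSS and the promoter bases shown above were under no H3K27ac peak in any library. The H3K27ac stretches stopped on either side, at position 50649130 in the gene and from position 50649935 upstream, and the upstream stretch, chr3:50649935-50651125, was present in both ATRA libraries, over 348 and 1191 bp, and in no control library. The far flank held the TSS of MAPKAPK3, a stress-activated kinase gene transcribed away from CISH, which was under H3K4me3 in all 4 libraries.

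SOCS1, which inhibits JAK kinases directly and is induced by interferons, had 4836 and 4680 bp under H3K4me3 in ATRA, and 4500 and 1929 bp in control. A single peak over the TSS made up the whole length in each library. Without control replicate 2, the ratio of 0.45 became 0.07. Around SOCS1 (chr16:11348274-11350061, minus strand), H3K27ac was sparse, with 202 and 1846 bp in ATRA and 0 and 371 bp in control, and the conditions overlapped. The short peaks next to the start, 202 and 348 bp within chr16:11350219-11350566, were called in both ATRA libraries and in no control library. Such stretches made up 8.07% of the H3K27ac stretches of the genome.

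SOCS2, which acts on the growth hormone receptor, lay at chr12:93963590-93977263 on the plus strand. H3K4me3 covered 7699 and 8602 bp in ATRA, and 8701 and 5697 bp in control, and the conditions overlapped. H3K27ac covered 1295 and 3376 bp in ATRA, and 764 and 1187 bp in control. The ratio of 0.76 became 0.22 without ATRA replicate 2. All H3K27ac of SOCS2 lay under H3K4me3 of the library with the same condition and replicate number, and no H3K27ac peak covered the 5′ end of the gene. At least 1 other annotated start was covered in each library, under peaks of 1295 and 2614 bp in ATRA and 764 and 1187 bp in control.

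At the 5′ ends of the 9 genes, H3K4me3 was called in all 4 libraries at 5 genes, STAT2, STAT3, SOCS1, SOCS2 and CISH, and in none at STAT4, STAT5A and STAT5B, with SOCS3 the gene that lacked it in a single library. Over all genes, 47.2% had H3K4me3 there in all 4 libraries and 48.1% in none. H3K27ac was called at no 5′ end in all 4 libraries, where 18.0% of all genes had it, at SOCS3 and STAT3 in both ATRA libraries, and at 6 genes in none, where 58.6% of all genes had none. These counts depend on the base chosen as the start. Over any annotated start, H3K27ac was in all 4 libraries at 3 of the 9 genes, and within 1 kb of the 5′ end at 2. The overlap of the marks also differed by gene. At SOCS3, 54.4% and 62.0% of the H3K27ac length in ATRA lay under H3K4me3, whereas at STAT4 38.0% and 14.1% did. At STAT5A, 29.0% and 31.0% of the H3K27ac length in control lay under H3K4me3.

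The other genes of the pathway were read from 4 lists with 42 genes. Of those with H3K27ac in the window, 23 of 40 were higher and 1 lower in both ATRA libraries than in both control libraries, with a median log2 ratio of 0.74, and of those with H3K4me3, 19 of 39 were higher and 0 lower, with a median of 0.20. These counts and medians stand beside 41.6% and 0.45, and 40.8% and 0.15, over all genes. When lengths were divided by the covered length of each library, 11 were higher and 8 lower in H3K27ac, and 11 higher and 12 lower in H3K4me3.

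Among JAK kinases, H3K27ac was higher at 2 of 4, TYK2 and JAK3. TYK2, the partner of interferon and interleukin-12 receptors, had 4391 and 7189 bp in ATRA, and 0 and 1323 bp in control. H3K4me3 was higher at 2 of 3, JAK1 and JAK2, with ratios of 0.23 and 0.31.

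Receptor chains were higher in H3K27ac at 7 of 13, with a median of 0.98. IL10RA, the ligand-binding chain of the interleukin-10 receptor, had 17054 and 21227 bp in ATRA, and 1520 and 5166 bp in control. IL6R, the interleukin-6 receptor that signals through STAT3, had 24344 and 23010 bp in ATRA, and 1520 and 7599 bp in control. At the low end of these 7 genes, CSF3R, the G-CSF receptor, and EPOR each had a ratio of 0.71. CSF3R had 20724 and 16981 bp in ATRA, and 6734 and 15505 bp in control. Between libraries of the same number, its log2 ratio was 1.49 in replicate 1 and 0.12 in replicate 2, against 0.69 and 0.72 for EPOR. In H3K4me3, 7 of 13 were higher, among them IFNGR2 at 0.11, CSF2RB, the shared chain of the GM-CSF receptor, at 0.62 and IL4R at 0.68. With only peaks of −log10 q of 5 or more, IL4R was instead lower in both ATRA libraries.

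Other restraints of the pathway, phosphatases, PIAS proteins and further SOCS genes, were higher in H3K27ac at 8 of 13 and lower at 1. PTPN1, a phosphatase that acts on JAK kinases, had 14222 and 16551 bp in ATRA, and 1709 and 3490 bp in control, and PTPN11 had a ratio of 1.65. The lower gene was SOCS7, with 1657 and 3451 bp in ATRA and 3515 and 5136 bp in control. PTPN6, at 0.36, was the lowest of the higher genes. In H3K4me3, 7 of 14 were higher, with PTPN1 at 0.73 and SOCS6 at 0.54 at the top and SOCS5 at 0.24 and PIAS4 at 0.20 at the bottom.

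Partners and targets of STATs were higher in H3K27ac at 6 of 10. PIM1, a kinase gene induced by STAT3 and STAT5, had 11437 and 15663 bp in ATRA, and 881 and 3249 bp in control. With only peaks of −log10 q of 5 or more, PIM1 was instead lower in both ATRA libraries than in both control libraries. IRF9, which pairs with STAT2, had 1084 and 1281 bp in ATRA and 0 bp in both control libraries. OSM and CCND2 each had a ratio of 0.47. In the gene body alone, and when lengths were divided by the covered length of each library, OSM was instead lower. In H3K4me3, 3 of 9 were higher, PIM1 at 0.91, BCL2L1 at 0.33 and MCL1 at 0.18.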

How the data were processed

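ChIP-seq of H3K4me3 and H3K27ac was analyzed in HL-60 cells treated with ATRA or ethanol, 2 replicates each. Per the study's methods, the authors removed adapters, placed reads on hg19 using Bowtie, and ran MACS2 in broad mode on single libraries. The deposited files give positions and a −log10 q per peak. The deposited fold and −log10 p columns hold values those measures cannot take and were not used. The −log10 q served only as a filter of 5. Read depth is unknown, so precision rests on 2 replicates.

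Gene models came from GENCODE release 44, lifted to GRCh37. The length under peaks was summed over each gene and 10 kb each side, and log2 ratios used a pseudocount of 1000 bp. The TSS was the 5′ end of the gene, and the canonical start was added after seeing the data. A gene was counted as higher or lower when both ATRA libraries lay above or below both control libraries, and percentages over all genes with a peak of the mark stand beside these counts. A stretch is a run of bases under peaks of any of the 4 libraries of a mark. The 9 genes and the pathway lists were chosen with earlier results of these data known. The genes named were the 9 genes, the 2 highest and 2 lowest ratios of each list and mark among genes whose conditions did not overlap, and neighbours with a TSS under a peak in a window. SOCS3 and CISH stretches and other intervals were described after their values were seen. Promoters were read from GRCh37. Some genes and promoter sequences under this rule are not reported here. Peak lists with known differences were simulated to test the scripts. Python 3.11.15, numpy 2.4.6, pandas 2.3.3, scipy 1.17.1 and matplotlib 3.10.9 were used.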

Additional observations from a re-analysis of the deposited data

How the results depend on the processing

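With peaks of −log10 q of at least 5, the STAT and SOCS genes higher in ATRA numbered 2 for H3K4me3 and 0 for H3K27ac, those lower 1 and 0. The 1 gene lower in H3K4me3 was STAT3, whose conditions overlapped with all peaks. Of all genes with a peak, 34.9% and 8.82% were then higher, and 5.41% and 3.95% lower. Pathway genes were 15 higher in H3K4me3 and 5 in H3K27ac. Among the pathway genes named for H3K27ac, PTPN6 alone was in these 5. The 1 pathway gene lower was IL4R in H3K4me3 and PIM1 in H3K27ac. The H3K4me3 peak over the TSS was then in all 4 libraries at 1 gene and in both control libraries at 2, and H3K27ac in both ATRA libraries at 0. By number of peaks, 1 gene was higher in H3K4me3 and 3 in H3K27ac, with pathway counts of 1 higher and 1 lower in H3K4me3 and 10 and 2 in H3K27ac. Of all genes, 5.9% were then higher and 2.11% lower in H3K4me3, and 19.1% and 2.09% in H3K27ac. By share of covered length, 2 genes were higher and 1 lower in H3K4me3 and 3 higher in H3K27ac, with pathway counts of 11 and 12, and 11 and 8. The shares of all genes higher and lower were 16.0% and 24.7% in H3K4me3, and 17.7% and 25.4% in H3K27ac. STAT5A was the 1 gene lower in H3K4me3 in the gene body, with 25 kb each side and by share of covered length. Of all genes, 5.47%, 3.17% and 24.7% were lower in these settings. With 25 kb each side, pathway genes were 1 lower in H3K4me3 and 0 in H3K27ac, where 3.17% and 3.61% of all genes were. Pathway genes lower in H3K27ac were 0 with peaks of at least 1 kb and 2 with equal numbers of the longest peaks. Of all genes, 3.94% and 8.08% were lower in these settings. H3K27ac over any transcript start was in all 4 libraries at 3 genes, in both ATRA at 5, in both control at 3 and in none at 3. Within 1 kb of the start these counts were 2, 6, 2 and 3, and at the canonical start 1 gene had it in both control libraries. At the canonical start, 0 genes had it in all 4 libraries and 5 in none, where 19.5% and 56.5% of all genes did. No share of all genes was taken for any transcript start, within 1 kb or at starts with the −log10 q of 5.

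CISH turned to -0.16 in H3K4me3 and -1.18 in H3K27ac at the −log10 q of 5, to -0.26 in H3K4me3 by number of peaks and to -0.50 in H3K27ac by share of covered length. STAT5B in H3K27ac turned to -0.99 and -0.19 at the −log10 q of 5 and by share. The causes were not tested. Leaving out 1 library gave 4 to 7 genes higher and 1 to 2 lower in H3K4me3, the 7 without control replicate 1, and 6 to 7 higher and 2 lower in H3K27ac. Pathway genes then numbered 19 to 38 higher and 0 to 11 lower in H3K4me3, and 24 to 35 higher and 1 to 5 lower in H3K27ac. The 38 came without control replicate 1, the 11 and the 35 without control replicate 2. Over all genes, leaving out 1 library gave 43.4% to 80.4% higher and 5.36% to 28.0% lower in H3K4me3. In H3K27ac it gave 45.9% to 70.9% higher and 6.24% to 20.0% lower. The 80.4% came without control replicate 1 and the 28.0% without control replicate 2. Without control replicate 2, 68.6% were higher in H3K27ac.

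With the replicate number as a block, 5 genes were higher and 0 lower in H3K4me3, and 7 higher and 2 lower in H3K27ac; pathway genes were 26 higher in H3K4me3 and 34 higher in H3K27ac. Over all genes, the block gave 54.6% higher and 6.85% lower in H3K4me3, and 59.6% and 8.02% in H3K27ac. Deviations of same-numbered libraries correlated at 0.24 and 0.49 over genes, but 2 numbers do not show a pairing. Of 234 log2 ratios of the 9 genes under alternatives, 164 moved by less than 1 SD of the replicates, 64 moved further and 6, given above, reversed a difference whose conditions had not overlapped. The SD was that of the main lengths with 2 libraries per condition, also for numbers of peaks. Genes with unlike replicates could therefore move far within it. For H3K4me3 at SOCS3 the SD was 1.17, so the move from 1.70 to 0.96 counted as less than 1 SD. The lack of read counts and 2 libraries per condition limit all of these values.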
